A study of Rattus norvegicus with 24 samples.

Results

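Insl3, Sult1e1, Srd5a1, Hsd11b1, Pdgfra and Nr2f2 are 6 genes used to place testicular Leydig cells between the fetal, the immature and the adult state. They were followed in rat testis RNA by taking every probe set (a group of short array probes read as 1 value) that the platform's annotation assigns to 1 of the 6 symbols. Of the 6 genes, 5 had a probe set, which gave 7 probe sets among 31042 tested, and 5 genes among the 14217 that the array names. Insl3, Sult1e1, Hsd11b1 and Pdgfra had 1 probe set each and Nr2f2 had 3, called here the brightest, the middle and the dimmest by their intensity. Srd5a1 was not measured here, so no value is given for it.

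Testes came from male Fisher 344 rats whose dams were gavaged daily from gestational day (GD) 12 to GD 20 with corn oil or with 50 mg/kg of dibutyl phthalate (DBP), a plasticiser. There were 6 groups of 4 arrays. At GD20 the fetal groups were oil (dams 2, 3, 4 and 5, with dam 2 labelled as a pool) and DBP (dams 16, 18, 19 and 21), the latter taken 6 h after the last dose. At postnatal day (PND) 35, offspring received 1 gavage of corn oil or of 500 mg/kg DBP and were killed 6 h later, and groups are written as fetal exposure then postnatal exposure. These were oil-oil (pups 104, 110, 114 and 120), oil-DBP (pups 105, 111, 115 and 121), DBP-oil (pups 123, 127, 132 and 134) and DBP-DBP (pups 124, 128, 133 and 135). All groups were of 1 strain with no altered gene, and all dams received the corn oil vehicle. RNA was from whole testis, so no value belongs to purified Leydig cells, and a lower value can come from fewer cells of a type or from less RNA per cell, which cannot be told apart.

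Leydig cells lie between the seminiferous tubules and make the testicular androgens. A fetal population masculinises the embryo, and an adult population arises after birth from spindle-shaped mesenchymal cells that pass through progenitor and immature stages around puberty. INSL3 is a peptide hormone of Leydig cells that drives the first phase of testis descent in the fetus and marks mature Leydig cells later in life. PDGFRA, the receptor for PDGF-A, and NR2F2 (COUP-TFII), an orphan nuclear receptor, are carried by the mesenchymal stem and progenitor cells. SRD5A1 reduces testosterone in immature cells, while HSD11B1, which interconverts active and inactive glucocorticoid, and SULT1E1, which sulfates and so inactivates estrogen, are used as markers of the mature stages.

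The Insl3 and Sult1e1 promoters are shown because nuclear receptors such as NR2F2 recognise the half-site AGGTCA, and these were the 2 members whose window held it. Of the 6 genes, 4 matched the RefSeq promoter table (assembly GRCr8), and the window is the 250 bases before the annotated start, written 5′ to 3′ on the gene's strand with the match in capitals. Insl3 is on the plus strand at chr16:18432939-18433188, and Sult1e1 is on the plus strand at chr14:20701230-20701479.
Insl3: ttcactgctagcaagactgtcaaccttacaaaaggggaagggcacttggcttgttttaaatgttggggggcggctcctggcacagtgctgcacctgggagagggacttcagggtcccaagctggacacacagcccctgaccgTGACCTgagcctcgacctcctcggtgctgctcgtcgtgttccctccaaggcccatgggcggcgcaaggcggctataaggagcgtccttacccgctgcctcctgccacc
Sult1e1: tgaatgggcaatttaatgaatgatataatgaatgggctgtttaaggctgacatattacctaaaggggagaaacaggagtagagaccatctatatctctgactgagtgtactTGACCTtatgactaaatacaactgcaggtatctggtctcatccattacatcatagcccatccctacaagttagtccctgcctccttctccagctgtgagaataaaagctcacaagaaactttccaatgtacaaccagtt
Both matches lie on the opposite strand, so that they read TGACCT here, and end 102 and 133 bases before the start. Searched on both strands, AGGTCA was in 14.1% of 33469 promoter windows of that length. The longer AAGGTCA, which contains AGGTCA and is the form bound by NR5A1 and NR4A1, was in 3.99% of the windows, including that of Sult1e1 but not that of Insl3. The Srd5a1 and Pdgfra windows held neither. A match to these letters describes the window and does not show binding.

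Each array had been scaled by the submitters to nearly the same trimmed mean, from 500.135 to 500.194, but array medians ran from 164.4 to 174.5 at GD20 and from 100.8 to 114.1 at PND35. Age coincides with other differences. RNA was prepared with Trizol at GD20 and with a column kit for 14 of the 16 arrays at PND35, and spermatid marker genes (8 measured) summed to between 326.35 and 379.65 in the fetal oil arrays against 90766 to 119690 in the oil-oil arrays. Preparation, germ cell content and age cannot be told apart, and the part of each in the age comparisons was not tested. Among Leydig genes, Cyp17a1, the 17-hydroxylase of androgen synthesis, was bright at both ages. It averaged 15317 ± 387 (SD, n = 4) in the GD20 oil and 8606 ± 1217 in the oil-oil arrays. Others fell further, such as Cyp11a1, which averaged 11495 ± 574 and 710 ± 118. The labels name a dam or a pup for each array and no litter for the pups, so p-values measure the spread between arrays.

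**Figure D1:**
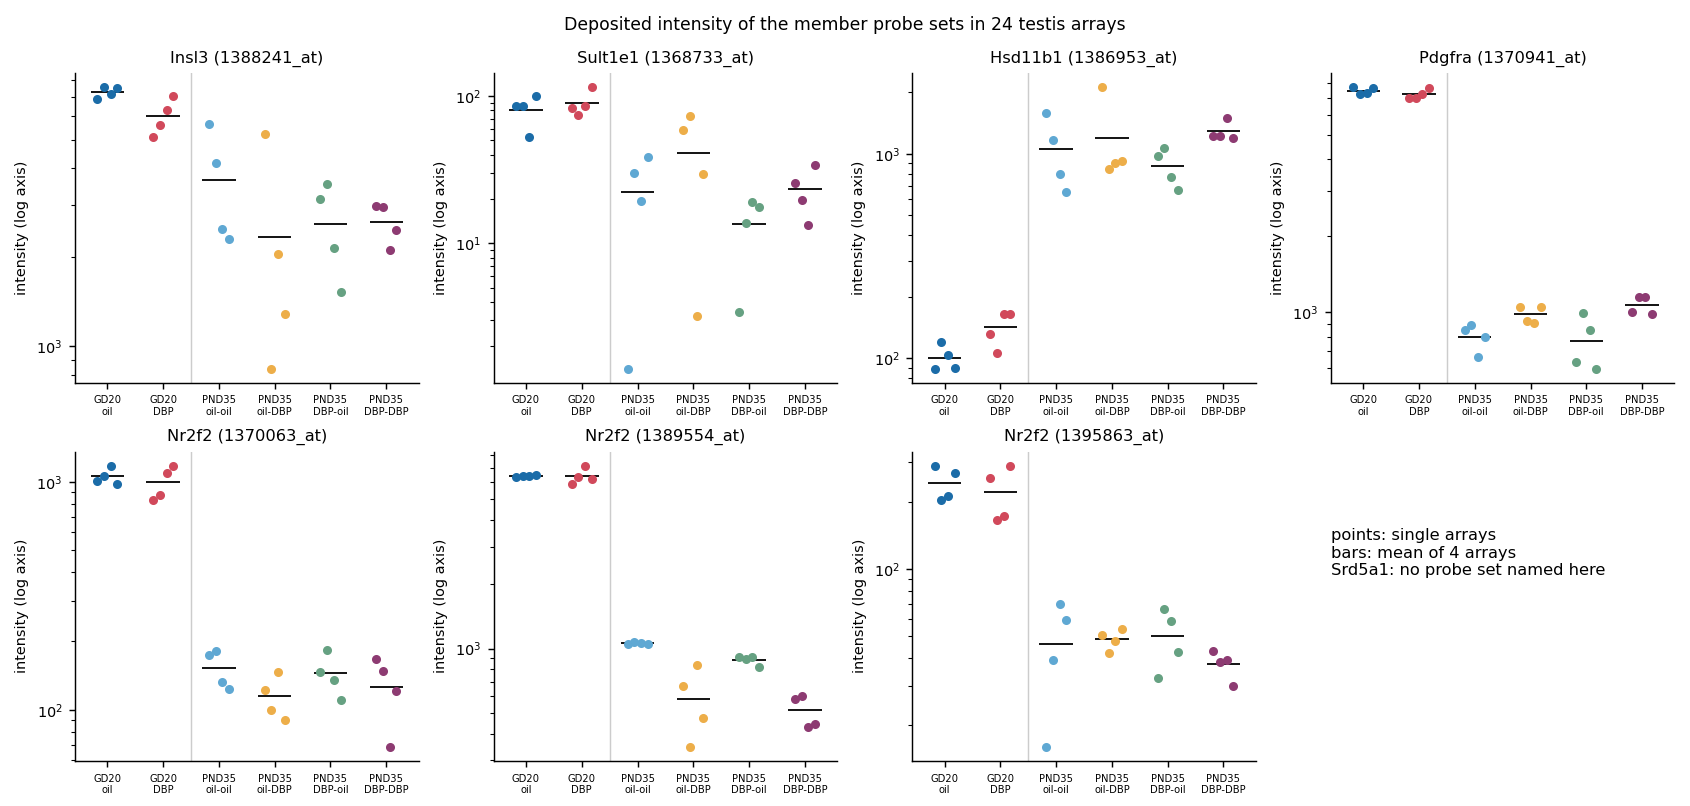
Deposited intensity (log axis) of the 7 member probe sets in the 24 arrays, with points for arrays and bars for the mean of 4. Pdgfra and the 3 Nr2f2 probe sets sit far lower in the 4 PND35 groups than in the 2 GD20 groups, Hsd11b1 sits higher, and Insl3 is lower and more scattered at PND35.

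Between the fetal and the pubertal control testis, Insl3 was lower on the deposited scale, Pdgfra and Nr2f2 were far lower, Sult1e1 was lower near the bottom of the scale, and Hsd11b1 was higher. All 7 probe sets passed the test (limma, Benjamini-Hochberg adjusted p under 0.05 over 31042 probe sets), against a background of 63.7% of all probe sets called. Of these, 1 was higher, beside 20.5% of all, and 6 were lower, beside 43.1%. In the independent fetal DBP and DBP-oil arrays all 7 passed again, beside 62.3%. With most of the array called, those counts are not particular to these genes. The sizes and directions below carry the description.

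Insl3 intensity in the 4 fetal oil arrays was 6862, 7531, 7149 and 7483, a mean of 7256 ± 313 (SD, n = 4). In the 4 oil-oil arrays at PND35 it was 5650, 4175, 2489 and 2317, a mean of 3658 ± 1571. The groups did not overlap, and the coefficient of variation went from 4.31% to 42.9%. The log2 change was -1.08 ± 0.24 (SE, limma adjusted p = 0.000387). The independent arrays with fetal DBP and no postnatal DBP gave -1.28 ± 0.24 (adjusted p = 6.69e-05), from 6019 ± 824 at GD20 to 2588 ± 918 at PND35. The fall depended on scaling. The median of the log2 changes of all probe sets was -0.31. Array medians ran from 169.1 to 174.5 in the fetal oil and from 100.8 to 106.7 in the oil-oil arrays. With each array centred on its own median, Insl3 changed by -0.43 (limma adjusted p = 0.118), which did not pass. Centring moves the log2 change of every gene by the same amount. The age changes and counts below are on the deposited scale, and small falls among them depend on that scale. Counted over 1 probe set per gene, 29.5% of all genes rose and 44.3% fell with age, and the lists below are read against these shares. Among 8 measured genes of the relaxin family and INSL3 signalling, 2 rose and 4 fell, with a median of -0.68 against -0.24 over all genes. Insl6, a relaxin relative expressed in male germ cells, rose by 6.80 ± 0.24 (adjusted p = 5.97e-16), and Rln1, the relaxin gene, fell by 2.25 ± 0.27 (adjusted p = 1.94e-07). The INSL3 receptor gene Rxfp2 was not measured here.

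Hsd11b1 was the member that rose. It read 89.2, 120, 104 and 89.4 in the fetal oil arrays and 1585, 1173, 801 and 650 in the oil-oil arrays. Every pubertal array was above every fetal one, and the change was 3.12 ± 0.21 (SE, log2, limma adjusted p = 2.81e-11). In the fetal DBP and DBP-oil arrays it was 2.48 ± 0.21 (adjusted p = 1.31e-09). The opposing enzyme of the kidney and placenta, Hsd11b2, fell by 2.99 ± 0.29 (adjusted p = 8.75e-09). H6pd, which supplies HSD11B1 with its cofactor inside the endoplasmic reticulum, fell by 0.56 ± 0.21 (adjusted p = 0.025) on the deposited scale. The H6pd fall is smaller than the move that centring gave Insl3, so its direction depends on scaling. The glucocorticoid receptor gene Nr3c1 fell by 1.57 ± 0.12 (adjusted p = 3.17e-10). Of 9 genes of this list, 2 rose and 6 fell, with a median of -0.95 against -0.24 over all genes.

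Among the measured members, the mesenchymal markers Pdgfra and Nr2f2 fell most. Pdgfra read 7683, 7243, 7287 and 7622 in the fetal oil arrays and 846, 887, 664 and 799 in the oil-oil arrays, a change of -3.20 ± 0.12 (SE, log2, limma adjusted p = 9.98e-16). The groups were far apart with little spread within either. With fetal DBP, the change was -3.23 ± 0.12 (adjusted p = 9.64e-16). Its ligand gene Pdgfa fell by 3.51 ± 0.19 (adjusted p = 7.51e-13) and the sister receptor Pdgfrb by 3.49 ± 0.19 (adjusted p = 5.38e-13). Of 10 measured genes of the PDGF list, 0 rose and 9 fell, with a median of -1.99.

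Nr2f2 fell in all 3 probe sets. The brightest read 6328, 6446, 6423 and 6516 in the fetal oil arrays and 1046, 1075, 1059 and 1053 in the oil-oil arrays, a coefficient of variation of 1.21% and 1.19%. Its change was -2.58 ± 0.07 (SE, log2, limma adjusted p = 5.86e-18), and those of the middle and the dimmest were -2.68 ± 0.15 and -2.14 ± 0.28. The paralog Nr2f1 fell by 1.96 ± 0.36 (adjusted p = 6.47e-05), and Zfpm2, a cofactor of GATA4, fell by 3.80 ± 0.20 (adjusted p = 4.07e-13). In the list of NR2F and Leydig transcription factors 0 rose and 14 of 16 fell. In the list of stem and progenitor Leydig and interstitial mesenchyme genes 0 rose and 16 of 17 fell, with a median of -1.93. Markers of other cells outside the tubule lumen fell too: 7 of 8 peritubular myoid and 6 of 6 endothelial genes. The part of these cells in the fall of Pdgfra and Nr2f2 was not tested.

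Sult1e1 was dim throughout, at 85.4, 84.7, 52.6 and 99.8 in the fetal oil arrays and 1.42, 30.2, 19.5 and 38.5 in the oil-oil arrays. The groups did not overlap, and the change was -1.43 ± 0.32 (SE, log2, limma adjusted p = 0.000471), which the added 16 understates at such low values. With fetal DBP it was -1.86 ± 0.32 (adjusted p = 2.66e-05). Papss1, which makes the sulfate donor, fell by 2.26 ± 0.07 (adjusted p = 1.46e-16). Sts, which removes sulfate from steroids, fell by 0.41 ± 0.16 (adjusted p = 0.0268) on the deposited scale. The Sts fall is also smaller than the move that centring gave Insl3, so its direction depends on scaling. Of 11 genes of estrogen sulfation, 2 rose and 4 fell.

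The 17 measured genes of the adult Leydig maturation list split, with 4 that rose and 5 that fell and a median of 0.02. Besides Hsd11b1, those that rose were Ces1d, a carboxylesterase, by 4.76 ± 0.39 (adjusted p = 4.66e-10), Akr1c14, the 3-alpha-hydroxysteroid dehydrogenase that acts after 5-alpha reduction, by 1.65 ± 0.16 (adjusted p = 1.28e-08), and Ptgds, a prostaglandin D synthase, by 1.03 ± 0.13 (adjusted p = 5.81e-07). Those that fell included Hsd17b3 and Lhcgr. Hsd17b3, the last enzyme of testosterone synthesis, fell by 4.79 ± 0.29 (adjusted p = 2.72e-12). Lhcgr, the receptor for luteinising hormone, fell by 2.32 ± 0.13 (adjusted p = 8.01e-13). Of 8 genes of 5-alpha reduction and androgen action, 1 rose and 3 fell. Srd5a3, a paralog of Srd5a1, fell by 1.23 ± 0.12 (adjusted p = 1.19e-08). Of 13 measured genes of Leydig steroidogenesis, 0 rose and 11 fell, with a median of -1.48. Of 12 fetal Leydig genes, 2 rose and 8 fell. Dlk1, a Notch ligand of fetal Leydig cells, fell by 4.09 ± 0.18 (adjusted p = 1.18e-14), and Gpr37, an orphan receptor, rose by 1.72 ± 0.13 (adjusted p = 7.84e-11).

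**Figure D2:**
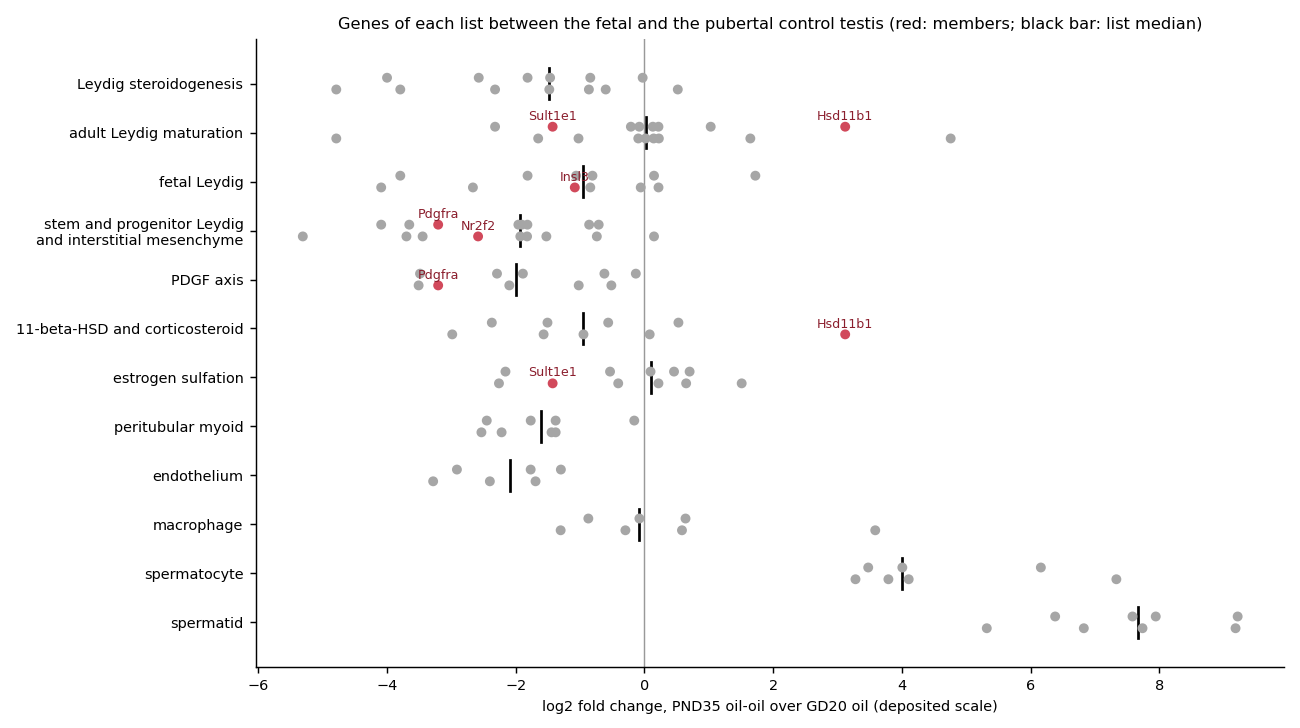
Log2 fold change (x axis, deposited scale) between the PND35 oil-oil and GD20 oil arrays for the measured genes of 12 lists (y axis), with members in red and a black bar at each list's median. The stem and progenitor list centres on -1.93 and the spermatid list on 7.66, and Hsd11b1 stands on the other side of 0 from the other members.

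In the fit of both ages, the test of whether the age change differed with fetal DBP called 0 of the 7 probe sets, beside 0.226% of all probe sets. Of the 7, 2 had an unadjusted p under 0.05, beside 3765 of all 31042. These 2 were Hsd11b1 (-0.64 ± 0.30, adjusted p = 0.403) and the brightest Nr2f2 probe set (-0.24 ± 0.09, adjusted p = 0.31).

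A measure that depends little on array scaling is the log2 difference within an array between a member and the mean of 4 Leydig genes. The number added before the log leaves some dependence for dim members. The 4 genes were Cyp11a1, Cyp17a1, the lipoprotein receptor gene Scarb1 and the steroidogenic regulator Nr5a1. Their mean itself fell by 2.22 on the log2 scale from GD20 oil to PND35 oil-oil. Relative to it, Insl3 was 1.14 higher at PND35 in the oil groups and 1.08 higher in the fetal DBP groups, with no overlap of arrays in either. Insl3 was therefore lower on the deposited scale and higher relative to these genes. Without Cyp11a1, which fell from 11495 ± 574 to 710 ± 118, the differences were 0.54 and 0.53 and the arrays overlapped. Hsd11b1 was 5.34 and 4.83 higher relative to the reference. The dim Sult1e1 differed by 0.79 in the oil and 0.50 in the fetal DBP groups, with overlap of arrays in both. With only 1 added before the log these were -0.10 and -0.45, so the direction for Sult1e1 depends on that number. Pdgfra was 0.98 and 0.87 lower, and Nr2f2 was 0.36 lower in the oil groups, but with Cyp11a1 alone as reference Pdgfra was 0.79 higher in both and Nr2f2 1.41 higher, and without Cyp17a1 the Nr2f2 difference was 0.10 higher. Each comparison of 4 arrays with 4 has a smallest two-sided exact permutation p of 0.0286. Over the 35 tests the smallest adjusted p was 0.0834, so that none passed. Arrays did not overlap in 12 of the 35. The share of all genes without overlap on this measure was not computed, so that count is only a description.

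**Figure D3:**
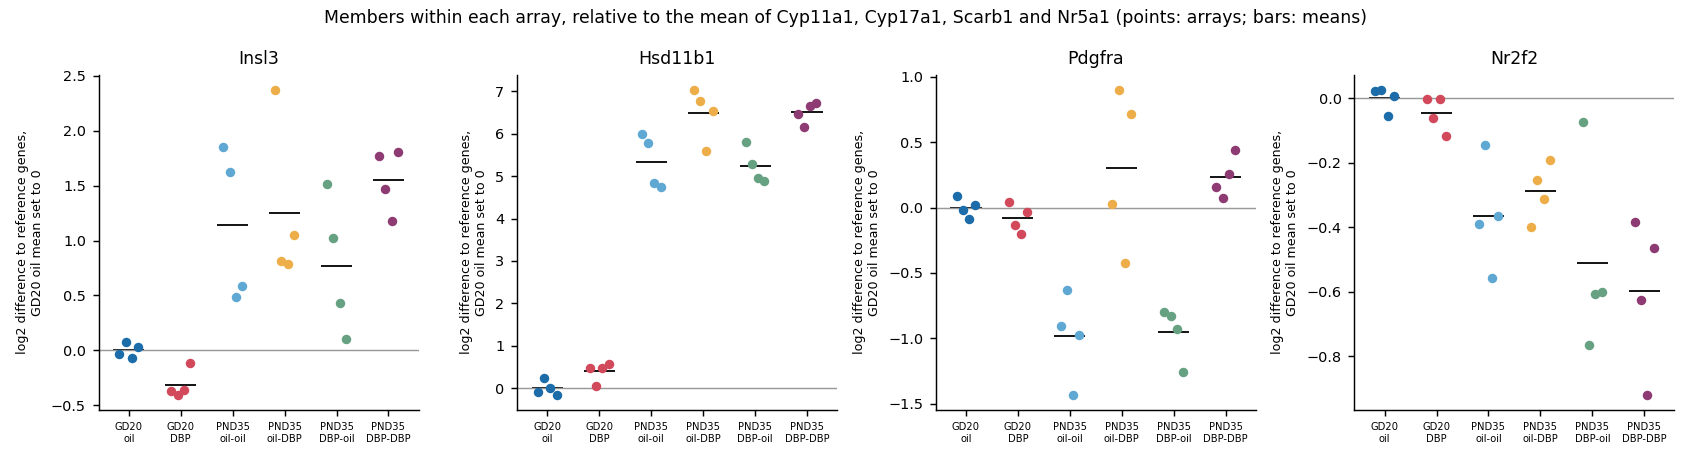
Log2 difference (y axis) between each of 4 members and the mean of 4 Leydig genes in the same array, with the GD20 oil mean set to 0, in 6 groups (points for arrays, bars for means). Insl3 and Hsd11b1 sit above 0 in the PND35 groups, and Pdgfra sits near -1 in the groups without postnatal DBP and near or above 0 in most arrays with it.

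At GD20, fetal DBP changed none of the 7 probe sets past the test, beside 0.441% of all probe sets called. Of the 7, 2 had an unadjusted p under 0.05, beside 3652 of all 31042. Insl3 read 5122, 5635, 6296 and 7022 with DBP (dams 16, 18, 19 and 21), so that 3 of 4 arrays were below the lowest oil array and that of dam 21 was within the oil range. The difference was -0.28 ± 0.09 (SE, log2, limma adjusted p = 0.265). Relative to the 4 Leydig genes it was -0.31 with no overlap of arrays (exact permutation p = 0.0286, adjusted p = 0.0834), but arrays overlapped with Cyp11a1 alone as reference or without Nr5a1. Dams 19 and 21 also had low RNA spike-in controls, and without both the Insl3 difference was -0.43 (adjusted p = 0.0344), past the test. Hsd11b1 read 132, 107, 166 and 165 with DBP, a difference of 0.43 ± 0.18 (adjusted p = 0.389). Prm1, a spermatid protamine gene, read 27.5, 31.5, 116 and 1469 in the same 4 arrays against 26.5 to 60.1 in the oil arrays, so that the array of dam 21 carried a signal of a cell type that a fetal testis lacks. Its part in the Hsd11b1 and Insl3 values was not tested, and without dam 21 they were 0.36 (adjusted p = 0.505) and -0.36 (adjusted p = 0.117).

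The other members were close to the controls at GD20. Pdgfra differed by -0.05 ± 0.07 and the brightest Nr2f2 probe set by -0.01 ± 0.07, and Sult1e1 by 0.13 ± 0.22. Among the partner genes, Pdgfa differed by -0.32 ± 0.08 (adjusted p = 0.128) and Hsd11b2 by -0.49 ± 0.11 (adjusted p = 0.101), neither past the test. Of all genes, 0.556% were called at 1 probe set per gene, and among the lists the transcription factors held the only call. Nr4a1, an immediate early nuclear receptor that activates Leydig promoters, rose by 1.06 ± 0.19 (adjusted p = 0.0382).

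At PND35, the brightest Nr2f2 probe set was lower 6 h after postnatal DBP in both fetal backgrounds, and Pdgfra was higher after fetal DBP. After fetal oil, 1 of 7 probe sets passed, against 8.92% of all probe sets, and after fetal DBP 2 of 7, against 5.23%. The brightest Nr2f2 probe set read 1046, 1075, 1059 and 1053 in oil-oil and 668, 347, 841 and 472 in oil-DBP. The groups did not overlap and the oil-DBP arrays were widely spread. The change was -0.98 ± 0.19 (SE, log2, limma adjusted p = 0.00167), but the other 2 Nr2f2 probe sets gave -0.44 ± 0.24 (adjusted p = 0.28) and 0.08 ± 0.29 (adjusted p = 0.904). After fetal DBP the brightest read 917, 893, 918 and 821 without and 583, 602, 428 and 445 with postnatal DBP. Its change was -0.80 ± 0.19 (adjusted p = 0.0122). The middle and the dimmest gave -0.23 ± 0.24 (adjusted p = 0.739) and -0.30 ± 0.29 (adjusted p = 0.721), with overlap of arrays in both. For the brightest after fetal DBP, the adjusted p was 0.0605 without pup 133 and 0.0537 without pup 135. It was 0.126 when the level class of the spike-in controls was added to the model. All 4 DBP-DBP arrays were of the high class and 2 of the DBP-oil arrays of the low one.

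Pdgfra was 637, 993, 849 and 599 in DBP-oil and 997, 1148, 1148 and 984 in DBP-DBP. A single control array, that of pup 127, overlapped the treated range, and the change was 0.47 ± 0.14 (SE, log2, limma adjusted p = 0.0459). The call passed in 8 of 22 alternatives and was lost without pup 123, 124, 128, 132, 133, 134 or 135, with an adjusted p of up to 0.175. After fetal oil the arrays read 846, 887, 664 and 799 without and 1048, 922, 904 and 1046 with DBP. These did not overlap as deposited but did overlap once each array was centred on its median, the scale of the fit, where the change was 0.23 ± 0.14 (adjusted p = 0.319). Its ligand gene moved more: Pdgfa rose by 1.77 ± 0.24 (adjusted p = 3.28e-05) after fetal oil and by 1.57 ± 0.24 (adjusted p = 0.000159) after fetal DBP, while Pdgfrb gave 0.04 and 0.06. Stat3, a transcription factor activated by growth factors and cytokines, rose by 1.93 ± 0.19 (adjusted p = 5.82e-07) and 1.79 ± 0.19 (adjusted p = 1.87e-06). Over all genes, 6.18% rose and 5.99% fell after fetal oil, and 5.16% rose and 2.17% fell after fetal DBP. Of the 10 PDGF genes, 2 and 3 rose and 0 fell, with medians of 0.29 and 0.24 against -0.11 and -0.07 over all genes.

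Of 17 stem and progenitor genes, 3 rose and 1 fell after fetal oil, and 5 rose and 1 fell after fetal DBP. Vcam1, an adhesion molecule, rose by 2.73 ± 0.23 (adjusted p = 7.45e-08) and 2.99 ± 0.23 (adjusted p = 1.86e-08), and Nes, the intermediate filament nestin, by 1.54 ± 0.36 (adjusted p = 0.0083) and 1.60 ± 0.36 (adjusted p = 0.00743). Nr2f2 was the 1 that fell in each. Peritubular myoid markers moved with these genes: 5 and 6 of 8 rose, and their summed level was 6501.9 to 6881.3 in oil-oil against 9156.6 to 9893 in oil-DBP, and 5557.4 to 7210.2 in DBP-oil against 8851.2 to 9561.3 in DBP-DBP. The part of these cells in the Pdgfra values was not tested.

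Insl3 after postnatal DBP read 5244, 842, 2048 and 1284 in oil-DBP, against 5650, 4175, 2489 and 2317 in oil-oil. Pup 105 was as high as the controls and the other 3 were below the lowest of them. The difference was -0.94 ± 0.40 (SE, log2, limma adjusted p = 0.15), and without pup 105 it was -1.46 (adjusted p = 0.00365). Insl3 also passed with adjacent pup numbers as a block, though the labels do not say whether such pups are paired. In DBP-DBP it read 2996, 2966, 2123 and 2484 against 3143, 3536, 2150 and 1524 in DBP-oil, a difference of 0.07 ± 0.40 (adjusted p = 0.964). The interaction, 1.01 ± 0.57 (adjusted p = 0.954), did not pass, and its interval ran from -0.17 to 2.19. Hsd11b1 differed by 0.09 ± 0.26 (adjusted p = 0.889) after fetal oil. After fetal DBP it was 973, 1063, 773 and 663 without and 1222, 1220, 1505 and 1199 with postnatal DBP, which did not overlap, at 0.56 ± 0.26 (adjusted p = 0.318). Sult1e1 differed by 0.41 ± 0.42 and 0.40 ± 0.42, neither past the test.

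Against the 4 Leydig genes, whose mean fell by 1.00 after fetal oil and by 0.70 after fetal DBP, Pdgfra was 1.29 and 1.19 higher with postnatal DBP and Hsd11b1 1.15 and 1.27 higher, while Nr2f2 differed by 0.08 and -0.09. Sult1e1 was 1.47 and 1.12 higher. It was dim in these arrays, and with only 1 added before the log the differences were 1.82 and 1.59, so their size depends on that number. Arrays did not overlap for Pdgfra in both backgrounds and for Hsd11b1 and Sult1e1 after fetal DBP (exact permutation p = 0.0286, adjusted p = 0.0834). With Cyp11a1 alone as reference the arrays overlapped in all 4 of these comparisons, and without Cyp17a1 they overlapped for Pdgfra after fetal oil. Among the reference genes, Cyp17a1 went from 8606 ± 1217 to 3365 ± 1365 and Nr5a1 from 665 ± 95.9 to 364 ± 119 after fetal oil. All 4 averaged lower with postnatal DBP in both backgrounds, and the differences above include that fall. Hsd11b1 by itself changed by 0.09 ± 0.26 (SE) after fetal oil. Of 13 measured genes of Leydig steroidogenesis, 2 rose and 5 fell after fetal oil, beside 6.18% and 5.99% of all genes. After fetal DBP 1 rose and 2 fell, beside 5.16% and 2.17%. Star, of that list, went from 352 ± 125 to 784 ± 121 after fetal oil.

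Fetal DBP left no called change at PND35. In DBP-oil against oil-oil 0 of 7 probe sets passed, beside 0.00322% of all probe sets. In DBP-DBP against oil-DBP, where both groups had postnatal DBP, 0 of 7 passed, beside 0%. None had an unadjusted p under 0.05 in either, beside 2299 and 2791 of all 31042 probe sets. The 4 DBP-oil arrays of the brightest Nr2f2 probe set were all below the 4 oil-oil arrays, by 0.27 ± 0.19 (SE, log2, limma adjusted p = 0.815). The middle and the dimmest overlapped, at -0.09 ± 0.24 and 0.14 ± 0.29. The share of all probe sets without overlap was not computed. The intervals were wide for Insl3, from -1.33 to 0.34 around -0.49, and for Sult1e1, from -1.18 to 0.55 around -0.31. The test of the interaction of both exposures called 0 of 7, beside 0% of all probe sets. All oil-oil and oil-DBP arrays were of the low spike-in class and all DBP-DBP arrays of the high one. In DBP-DBP against oil-DBP, class and fetal DBP therefore coincide. DBP-oil held both classes, so the other comparison and the interaction coincide with class in part.

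**Figure D4:**
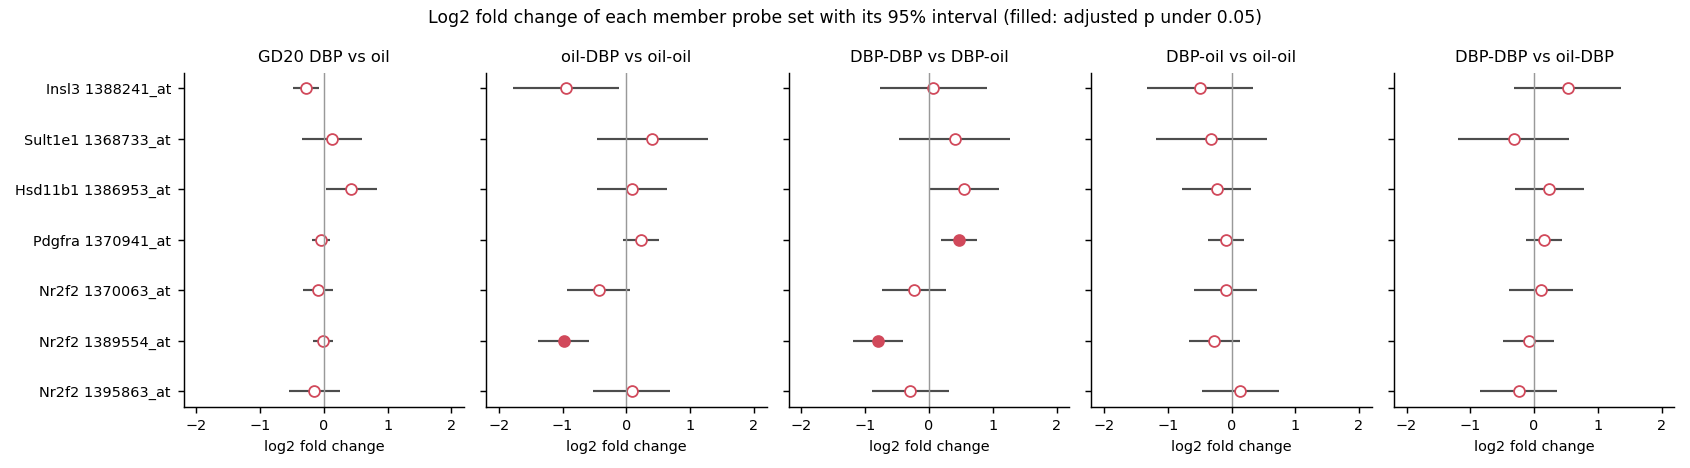
Log2 fold change (x axis) with its 95% interval for each member probe set (y axis) in 5 comparisons at 1 age, filled where the adjusted p is under 0.05. The filled points are the brightest Nr2f2 probe set after postnatal DBP in both fetal backgrounds and Pdgfra after fetal DBP, and the Insl3 and Sult1e1 intervals are the widest at PND35.

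In the order of the 6 group means on the deposited scale, Insl3 went from GD20 oil through GD20 DBP, oil-oil, DBP-DBP and DBP-oil to oil-DBP, and every pair of neighbours overlapped. Pdgfra had gaps between GD20 DBP and DBP-DBP and between oil-DBP and oil-oil, the second of which was absent with arrays centred on their medians (exact permutation p = 0.114). Nr2f2 had gaps between GD20 DBP and oil-oil and between oil-oil and DBP-oil. Hsd11b1 had 1 gap, between DBP-oil and GD20 DBP, and Sult1e1 had none. Each gap had the smallest exact permutation p, 0.0286, with an adjusted p of 0.143 over 25 neighbours.

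The spread of Insl3 among pubertal animals ran with that of Hsd11b1, but not within DBP-DBP. Over the 16 PND35 arrays, with each gene's group mean removed, Pearson's r was 0.887 (permutation p = 0.00084, adjusted p = 0.0084 over 10 pairs) and Spearman's rho 0.918 (permutation p = 0.0005, adjusted p = 0.005). Without the 2 arrays farthest from the median, r was 0.816, and without pup 105 it was 0.778. It was 0.968 over the 8 arrays with postnatal oil and 0.85 over the 8 with postnatal DBP. The latter joins unlike groups, since in DBP-DBP both genes deviated in opposite directions in pups 124 (0.20 and -0.06 for Insl3 and Hsd11b1), 128 (0.21 and -0.04) and 133 (-0.33 and 0.20). Pearson's r was 0.92 among the 10 arrays of low spike-in class and -0.121 among the 6 of high class, so it did not hold within the latter. The high class held all DBP-DBP arrays and pups 132 and 134 of DBP-oil, so class and exposure cannot be told apart here. With the mean of the 4 Leydig genes, Insl3 gave r = 0.522 (permutation p = 0.227, adjusted p = 0.331) and rho = 0.329 (permutation p = 0.315, adjusted p = 0.35). Hsd11b1 was not the only gene that ran with Insl3. With the brightest Nr2f2 probe set, Insl3 gave rho = 0.644 (permutation p = 0.00799, adjusted p = 0.0399), which passed, and r = 0.652 (permutation p = 0.0839, adjusted p = 0.168), which did not and was 0.421 without the 2 farthest arrays. Within the spike-in classes that r was 0.652 (low) and 0.879 (high). Nr2f2 and the mean of the 4 Leydig genes gave r = 0.82 (permutation p = 0.0252, adjusted p = 0.126) and rho = 0.606 (permutation p = 0.106, adjusted p = 0.212). That r was 0.546 without the 2 farthest arrays, 0.873 and 0.634 in the low and high classes, and -0.242 over the 8 arrays with postnatal oil against 0.929 over the 8 with postnatal DBP. None of the other 6 pairs passed after adjustment. These pairs were chosen after the values had been seen.

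**Figure D5:**
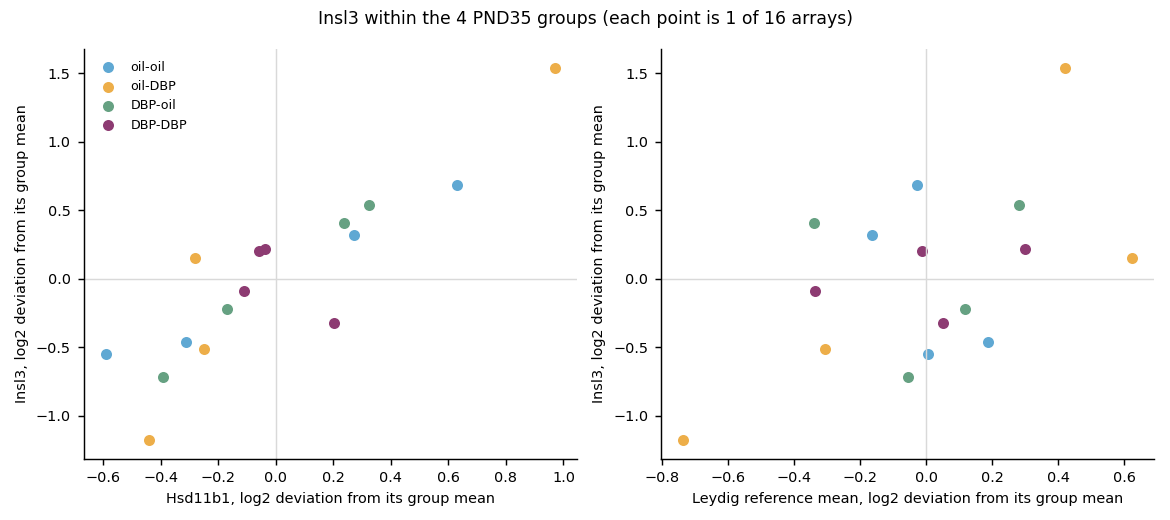
Log2 deviation of Insl3 from its group mean (y axis) in the 16 PND35 arrays, against that of Hsd11b1 (left) and of the mean of 4 Leydig genes (right), coloured by group. Insl3 and Hsd11b1 rise together (r = 0.887), with deviations of opposite sign in 4 arrays (pup 115 of oil-DBP and pups 124, 128 and 133 of DBP-DBP), and the right panel is more scattered (r = 0.522).

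Among 10636 named genes with a mean intensity of at least 100, the genes most like Insl3 over the 16 PND35 arrays were Ces1d (r = 0.974), Fbp1, the gluconeogenic phosphatase gene (0.932), and Adh1c, an alcohol dehydrogenase gene (0.926). Ces1d read 2847, 2682, 1124 and 973 in oil-oil, in the same order of pups as Insl3. Over deviations from group means in all 24 arrays they were Adh1c (0.918), Igfbp2, an IGF binding protein gene (0.916), and Pcolce, which enhances collagen processing (0.898). Pdgfra was closest to Flna, the actin crosslinker filamin A, at PND35 (0.896), then Col4a1 (0.880), a basement membrane collagen, and Acta2 (0.860), smooth muscle actin. Nr2f2 was closest to Mxi1 (0.965), Lratd1 (0.962) and Dkk3 (0.960), a secreted WNT modulator. Hsd11b1 was closest to Rarres2 (0.873), which encodes chemerin, Lcat (0.838), the plasma cholesterol acyltransferase gene, and Hp (0.821), haptoglobin. Sult1e1 gave lower values, with Cul4b at 0.811. These are correlations over arrays that share scaling and groups, given as a description.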

How the data were processed

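The deposited intensity values are linear, and GCOS 1.0 is the software that the submitters' processing notes list. The trimmed mean of each array is near 500 with 2% cut at each end. No label or header states how probes were summarised. The table holds 31099 probe sets, of which 57 are maker's controls and were left out. Values were tested as log2(intensity + 16) with limma 3.58.1 in R 4.3.3 (eBayes, variance trend on intensity). Tests were two-sided, and p-values were adjusted by Benjamini-Hochberg across all 31042 probe sets. Fold changes on this scale are smaller than the true ones for dim genes. The 8 GD20 arrays and the 16 arrays without postnatal DBP (age) were fitted as deposited, and the 16 PND35 arrays centred on their medians. The code was tested on simulated data. The brightest probe set stands for a gene in lists, orders and correlations.

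The members and lists were chosen with earlier results of these data known. All member probe sets are reported. Other genes were named only from the lists: up to 4 per list and comparison with the largest called change, and fixed direct partners. The 3 genes most like each member were ranked by Pearson's r. Prm1, Cyp17a1, Cyp11a1, Nr5a1 and Star levels were named because the reading of results turns on them. The labels give no litter for the pups, so adjacent pup numbers were not treated as pairs in the main fits. Deviations of adjacent pups correlated between -0.132 and 0.238, which cannot decide whether such pups are related. Alternatives were scaling, pseudocount, a filter on dim probe sets, trend, array weights, spike-in class, RNA integrity, extraction and leaving out arrays. The number of arrays limits precision.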

Additional observations from a re-analysis of the deposited data

Results flagged for a closer look

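Among 42 sets of 4 arrays (7 probe sets in 6 groups), 2 had an array far from the other 3 by Dixon's ratio, and chance gives about 1 in 20. Hsd11b1 in the oil-DBP array of pup 105 read 2115, with the other 3 arrays between 843 and 920. Hsd11b1 in the DBP-DBP array of pup 133 read 1505, with the other 3 between 1199 and 1223.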

How the results depend on the processing

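Over the alternatives, 1421 values were recomputed: 1326 kept their direction and side of the threshold, 19 lost a call, 4 gained one, 72 uncalled values changed sign and 0 called values reversed. At GD20 the number of called probe sets went from 0 to 1 without dams 19 and 21. After fetal DBP, postnatal DBP called 2; this was 1 when arrays were centred on the 75th percentile, under quantile normalization, with extraction as a covariate and without the 2 Trizol arrays, and 0 without an intensity trend and when spike-in class was added to the model. Leaving out 1 array gave 0 to 2. After fetal oil it called 1, and 2 with adjacent pup numbers as a block, where Insl3 passed (adjusted p = 0.0389) and oil-DBP read lower than the adjacent oil-oil pup in 4 of 4; leaving out 1 array gave 1 to 2, with 2 without pup 105. The age comparisons called 6 to 7. The labels do not say whether adjacent numbers mark a pair. Deviations of adjacent pups correlated between -0.132 and 0.238, which cannot decide whether the block reflects anything shared. The cause of these moves was not tested. Sult1e1 and the dimmest Nr2f2 probe set are dim at PND35, which limits what they show there.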
